A study of Mus musculus with 6 samples.

Results

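Lyz1, Mmp12 and Tyrobp are genes of macrophage effector function, taken by name from a deposited transcript table of mouse peritoneal macrophages. All listed transcripts with one of these gene names were used, which gave 7 transcripts of 3 genes out of 33539 transcripts of 16358 genes. There were 2 transcripts of Lyz1, 3 of Mmp12 and 2 of Tyrobp. The 3 genes were chosen with their values in these libraries known, so the difference between the genotypes is given for them as a description, with no test.

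RNA was measured in 6 libraries, 3 from wild-type mice (WT 1 to 3) and 3 from mice lacking Fbxo38 in myeloid cells (conditional knockout, cKO 1 to 3). The F-box protein made from Fbxo38 recognises the substrates of an SCF-type ubiquitin ligase. For 24 h all 6 cultures received IL-4/IL-13 (20 ng/mL), so none of them was unstimulated, and the mice were littermates of both genotypes. The Cre line that made the deletion, the deleted exons, the strain, the age, and how the macrophages were separated from other peritoneal cells have no entry in the sources used here.

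Lysozyme cleaves the peptidoglycan of bacterial cell walls. The mouse has a pair of neighbouring lysozyme genes, of which Lyz2 is the usual macrophage gene and Lyz1 is best known from Paneth cells of the intestine. Mmp12 encodes macrophage elastase, a secreted zinc protease that degrades elastin and other matrix proteins. Tyrobp encodes DAP12, a small membrane adaptor that pairs with activating receptors such as TREM2 and passes their signal to the kinase SYK through its ITAM motif.

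The coding sequences of Lyz1 and Lyz2 are shown in part because the level of Lyz1 rests on telling the copies apart. They were read from the GENCODE M21 transcripts ENSMUST00000092162 and ENSMUST00000092163, on the minus strand of chromosome 10, and capitals mark the bases at which they differ. Bases 1 to 150 of each, which hold most of the differences, come first, then the longest run that both share.
Lyz1: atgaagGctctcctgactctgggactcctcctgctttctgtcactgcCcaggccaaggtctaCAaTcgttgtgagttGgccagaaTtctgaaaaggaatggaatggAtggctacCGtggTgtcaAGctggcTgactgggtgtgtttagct
Lyz2: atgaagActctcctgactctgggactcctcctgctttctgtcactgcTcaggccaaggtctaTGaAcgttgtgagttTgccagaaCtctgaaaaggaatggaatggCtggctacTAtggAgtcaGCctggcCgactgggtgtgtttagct
Shared run: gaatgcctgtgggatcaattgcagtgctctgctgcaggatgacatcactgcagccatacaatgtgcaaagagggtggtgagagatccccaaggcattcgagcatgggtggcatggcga
Over the whole coding sequence they differ at 22 of 447 bases, an identity of 95.1%, and 14 of the 22 lie in the first 150 bases. The longest identical run is 118 bases, from base 276 to base 393 of the coding sequence. Reads were 150 bases long, per the labels' protocols, and none of the 1114 windows of 150 bases in the whole Lyz1 transcript occurs unchanged in that of Lyz2. At 50 bases, 195 of 1214 windows, or 16.1%, do. A full read of 150 bases without errors could thus be told apart, while a read trimmed to lie within an identical run could not. No Lyz2 transcript is in the table, so Lyz2 was not analysed here, and the level of Lyz1 cannot be set beside that of its copy.

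The upstream sequences of Lyz1 and Mmp12, genes whose main transcripts were both highest in cKO 1 and cKO 3, are shown with the motifs searched in them. Tyrobp was also highest in these libraries, but the source used here holds no upstream sequence for it. The sequences shown are the 250 bases before the start of the main listed transcript, credited to RefSeq on GRCm38.p6. For Lyz1 they lie at chr10:117292869-117293118 on the minus strand and for Mmp12 at chr9:7347124-7347373 on the plus strand. The sources used here do not name the build of the deposited values. Capitals mark matches on either strand to GGAAGT, the core bound by PU.1 and other ETS factors, or to TGANTCA, bound by AP-1, and the motifs do not overlap each other here.
Lyz1: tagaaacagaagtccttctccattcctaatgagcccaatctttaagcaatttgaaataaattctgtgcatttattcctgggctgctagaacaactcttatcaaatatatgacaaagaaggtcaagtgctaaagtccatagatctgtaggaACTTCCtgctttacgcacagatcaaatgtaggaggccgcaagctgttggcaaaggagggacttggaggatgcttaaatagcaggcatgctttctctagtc
Mmp12: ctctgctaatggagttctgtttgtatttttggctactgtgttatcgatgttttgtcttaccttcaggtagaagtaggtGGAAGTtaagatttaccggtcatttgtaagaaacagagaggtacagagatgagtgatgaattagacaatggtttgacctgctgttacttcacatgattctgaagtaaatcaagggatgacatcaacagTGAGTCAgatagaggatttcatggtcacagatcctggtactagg
Each holds 1 match to the ETS core, starting 100 bases before the start in Lyz1 and 172 bases before it in Mmp12, a motif found in 19.7% of 32851 promoter windows of this length. Mmp12 also holds 1 match to the AP-1 motif, 44 bases before its start, found in 6.75% of the windows. Neither window holds TTC and GAA spaced by 4 bases, a form bound by STAT6, the factor that IL-4 and IL-13 activate, and 5.85% of windows hold it. A match is a string of letters and shows no binding.

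WT 2 stood apart from the other libraries. The listed transcripts made up 6.57% of its TPM (transcripts per 1000000, the unit of all levels here), against 2.01% to 3.79% in the others. Listed markers of mesothelial cells and fibroblasts, 13 of 14 genes, summed to 511 TPM in WT 2, to 63.7 and 151 TPM in WT 1 and WT 3, and to between 20.1 and 65.7 TPM in cKO. Y-linked transcripts reached 0.01 TPM in WT 1 and WT 2, against at least 49.7 TPM in WT 3 and the cKO libraries. Xist was at 3.83 TPM in WT 1, 43.8 TPM in WT 2 and 0 in all others. By these transcripts the sexes were unbalanced between the genotypes, with WT 3 the only WT library like the cKO libraries. The part of sex in the differences between the genotypes was not tested. Listed transcripts of the targeted gene Fbxo38 summed to 8.79, 11.8 and 12.4 TPM in WT 1 to 3. In cKO 1 to 3 they summed to 6.14, 9.08 and 5.90 TPM, so cKO 2 lay within the WT range. These sums leave out any unlisted transcript and cannot show how much of the gene was lost in a library. Of 20 macrophage markers only 8 are listed and 12, including Cd68, Mertk and the C1q genes, are not, because the table was selected for a deposited difference of at least 2-fold. Those listed summed to 21.7 to 39.3 TPM in WT and 15.4 to 27.0 TPM in cKO. Most of each cKO sum came from a processed transcript of Spi1, at 12.6, 20.5 and 15.7 TPM in cKO 1 to 3. Its deposited log2 fold change was 1.11. Of the 20 listed transcripts of these markers, 15 were lower and 5 higher in the deposited comparison. Only a Gata6 transcript had a deposited adjusted p under 0.05, at 0.0267, with a log2 fold change of -2.08. The sums therefore understate how many of these transcripts were lower in cKO. Monocyte, neutrophil, B cell, T and NK cell, mast cell, eosinophil and dendritic cell markers each summed to 7.77 TPM or less in every library. In that order, 5 of 8, 4 of 13, 5 of 7, 8 of 9, 4 of 6, 1 of 4 and 5 of 5 genes are listed. As only transcripts selected for a difference are listed, low sums do not show that these cells were scarce. In bulk RNA, fewer cells of a type and less RNA per cell cannot be told apart.

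Lyz1 was higher in each cKO library than in any WT library. The main Lyz1 transcript, ENSMUST00000092162, is protein-coding and 1263 bases long. Its WT levels were 72.0 TPM in WT 1, 38.2 TPM in WT 2 and 63.7 TPM in WT 3. The cKO levels were 312 TPM in cKO 1, 224 TPM in cKO 2 and 283 TPM in cKO 3. The groups were far from overlapping, as the lowest cKO library was 3.11 times the highest WT library in the summed listed transcripts. The mean level of the main transcript was 58.0 ± 17.7 TPM for WT and 273 ± 45.2 TPM for cKO (SD, n = 3 each), a ratio of 4.71. On the log2(TPM + 1) scale the difference was 2.25 ± 0.57 (SE) in a limma fit of 2050 transcripts. In the authors' deposited table its log2 fold change was 2.60 and its adjusted p 1.58e-07. The log2 ratio of mean TPM minus that deposited value was -0.36.

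A second, assembled Lyz1 transcript, MSTRG.2172.1, had 1.63, 0.50 and 1.12 TPM in cKO 1 to 3 while all WT libraries listed it at 0. It thus ranked the cKO libraries as the main transcript did, at a level near 1 TPM, and it did not pass the filter of at least 1 TPM in at least 3 libraries. In the authors' deposited table its adjusted p was 0.00557 and its log2 fold change 7.52. No fold is computed here, since its WT libraries are all listed at 0. The main transcript made up at least 99.5% of the listed Lyz1 level in each library. Both Lyz1 transcripts have a deposited adjusted p under 0.05, against 0.268% of all listed transcripts called in either direction and 0.0984% called as higher in cKO, and no transcript of Mmp12 or Tyrobp has one.

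Mmp12 was high in cKO 1 and cKO 3, while cKO 2 was close to WT. The main Mmp12 transcript, ENSMUST00000005950, is protein-coding and 3607 bases long. Its level was 56.5 TPM in WT 1, 36.6 TPM in WT 2 and 44.0 TPM in WT 3. In the knockout libraries it reached 402 TPM in cKO 1, 57.7 TPM in cKO 2 and 613 TPM in cKO 3. The groups did not overlap, but only by the 1.18 TPM between cKO 2 and WT 1. The means were 45.7 ± 10.1 TPM for WT and 358 ± 280 TPM for cKO (SD, n = 3 each), a ratio of 7.83, so the spread within cKO was of the size of its mean. The limma log2 difference was 2.41 ± 0.93 (SE). It was 3.44 without cKO 2 and 1.74 without cKO 3. The authors' deposited table lists a log2 fold change of 3.41 with an adjusted p of 0.105.

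The other Mmp12 transcripts were low and did not follow the main one. ENSMUST00000138220, a processed transcript of 410 bases with no annotated coding sequence, measured 2.15, 3.12 and 2.70 TPM across WT 1 to 3, then 7.0, 4.73 and 3.01 TPM across cKO 1 to 3. Here cKO 3, the highest library of the main transcript, was the lowest cKO library and lay below WT 2. The limma log2 difference of this transcript was 0.65 ± 0.45 (SE), and it was 0.40 without cKO 1 and 1.42 after median-ratio rescaling, in which each library is divided by a size factor taken as a median of ratios over transcripts. ENSMUST00000150167, an incomplete coding model of 362 bases, was listed at 0.84 TPM in cKO 3 and at 0 elsewhere, and did not pass the filter. The main transcript made up between 92.1% and 99.4% of the listed Mmp12 level.

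Tyrobp was high in cKO 1 and cKO 3, while cKO 2 was below the WT mean. The main Tyrobp transcript, ENSMUST00000032800, is protein-coding and 564 bases long, and its mean in cKO was the 10th highest of the 33539 listed transcripts. Its levels were 365 TPM in WT 1, 175 TPM in WT 2 and 252 TPM in WT 3. They were 896 TPM in cKO 1, 224 TPM in cKO 2 and 848 TPM in cKO 3. The groups overlapped, since cKO 2 was lower than both WT 1 and WT 3. The means were 264 ± 95.3 TPM for WT and 656 ± 375 TPM for cKO (SD, n = 3 each), a ratio of 2.48. The limma log2 difference was 1.13 ± 0.71 (SE), and 1.78 without cKO 2. It was 0.79 without cKO 1, 0.83 without cKO 3 and 0.87 without WT 2. The authors' deposited table lists 1.72 on the log2 scale (adjusted p = 0.248). The second Tyrobp transcript, the assembled MSTRG.16015.4, was at 0.32 TPM in WT 2 and at 0 elsewhere, and is the only transcript of the 3 genes with a lower mean in cKO.

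**Figure D1:**
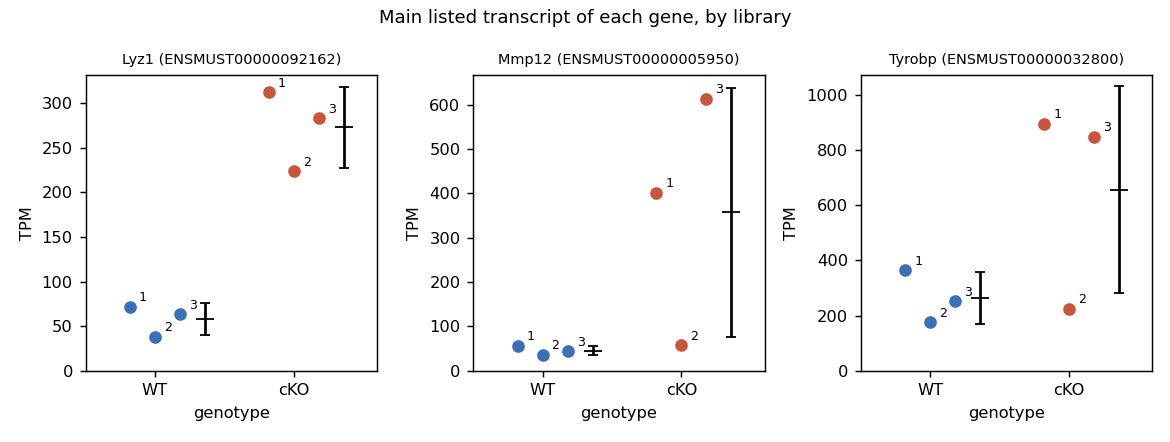
TPM of the main transcript of Lyz1, Mmp12 and Tyrobp in each library, numbered by replicate, with the mean and SD of each genotype (n = 3) as a black bar. The cKO points of Lyz1 lie at 224 to 312 TPM, above all WT points, while cKO 2 sits at the WT level for Mmp12 and Tyrobp.

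**Figure D2:**
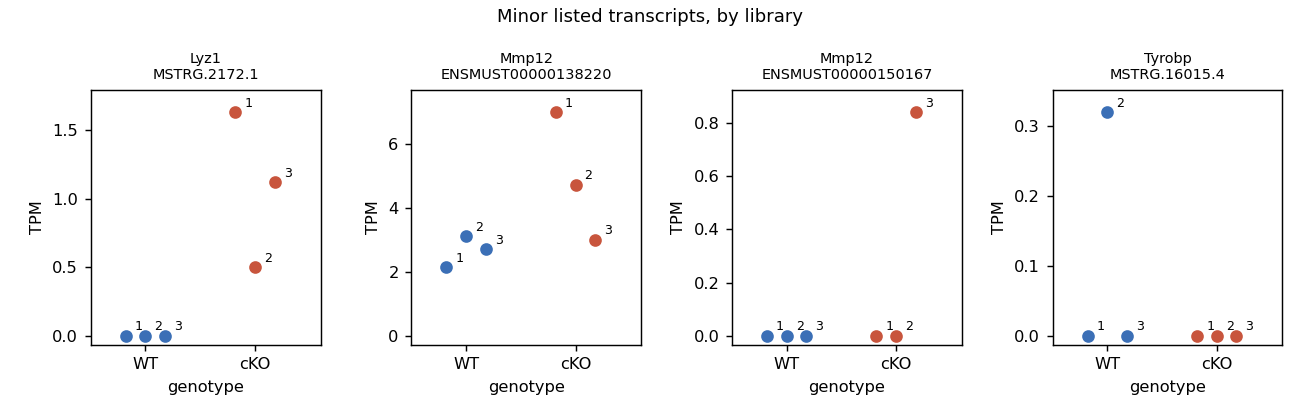
TPM of the 4 minor listed transcripts in each library, numbered by replicate. None exceeds 7.0 TPM, and the order of the cKO libraries in Mmp12 ENSMUST00000138220 differs from that of the main Mmp12 transcript.

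Counted together, 6 of the 7 transcripts are listed as higher in cKO and 1 as lower, in a table where 39.4% are listed as higher. In 3 of the 7 each cKO library lay above each WT library, a pattern seen in 2.39% of all listed transcripts. Of the 4 that passed the filter, 2 showed it, against 14.1% of the transcripts that passed. These shares describe members that were picked on the same contrast and are not read further.

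The 3 genes ordered the WT libraries alike and shared the lowest cKO library. Summed over listed transcripts, WT 1 was highest and WT 2 lowest among the WT libraries for all 3, and cKO 2 was the lowest cKO library for all 3, while cKO 3 lay above cKO 1 for Mmp12 and below it for the other two. Of 390 genes with a mean of at least 5 TPM and at least 1 TPM in 3 libraries, 42 had this order of the WT libraries, 142 had cKO 2 as the lowest cKO library and 21, or 5.38%, had both. The level of cKO 2 relative to WT differed between the genes. Against the mean of the WT libraries, cKO 2 stood at 3.87-fold for Lyz1, 1.29-fold for Mmp12 and 0.849-fold for Tyrobp. In cKO 1 the same ratios were 5.42, 8.46 and 3.39, and in cKO 3 they were 4.90, 12.8 and 3.21. The ratio of Lyz1 to Tyrobp TPM was 0.197 to 0.252 in WT, 0.351 in cKO 1 and 0.335 in cKO 3, and reached 0.998 in cKO 2. The ratio of Mmp12 to Tyrobp was 0.161 to 0.226 in WT and 0.457, 0.278 and 0.728 in cKO 1 to 3, so it was above its WT range in each cKO library. Of the cKO libraries, cKO 2 also had the highest listed Fbxo38 sum, at 9.08 TPM, and the part of this in its levels was not tested.

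Likeness was measured as the root mean square distance between profiles of log2(TPM + 1) over the 6 libraries, each gene centred on its own mean, with smaller values for more alike genes. The distance was 0.75 between Mmp12 and Tyrobp, 0.77 between Lyz1 and Tyrobp and 0.90 between Lyz1 and Mmp12. Of the 389 other genes, Tyrobp was the one nearest to Mmp12, with Lyz1 in place 6. Seen from Tyrobp, Mmp12 held place 67 and Lyz1 place 72, so many genes were closer to Tyrobp than either was. With each genotype's own mean subtracted, the distance between Mmp12 and Tyrobp was 0.42, that between Lyz1 and Tyrobp 0.52 and that between Lyz1 and Mmp12 0.90.

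The genes nearest to Tyrobp came from unrelated processes. They were Snrpg, a core protein of the spliceosome (distance 0.19), AC159819.1 (0.28), mt-Nd3, a complex I subunit encoded in mitochondrial DNA (0.31), Rnaset2b, a ribonuclease (0.37), and Pcbd2, a pterin dehydratase (0.39). Snrpg measured 20.2, 5.83 and 12.5 TPM across WT 1 to 3, then 37.9, 9.37 and 36.5 TPM across cKO 1 to 3, the same order of libraries as Tyrobp. The nearest to Lyz1 were Ergic3, a protein of transport between the endoplasmic reticulum and the Golgi (0.39), the ATP synthase subunit gene Atp5md (0.53), Hax1, an inhibitor of apoptosis (0.54), the nuclear lamin gene Lmna (0.55) and the membrane raft gene Flot1 (0.65). Lmna was at 18.9, 24.9 and 19.3 TPM in cKO 1 to 3, with cKO 2 the highest. After Tyrobp, the nearest to Mmp12 were Rnaset2b, Hax1, Snrpg and Ergic3, at 0.80 to 0.88.

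**Figure D3:**
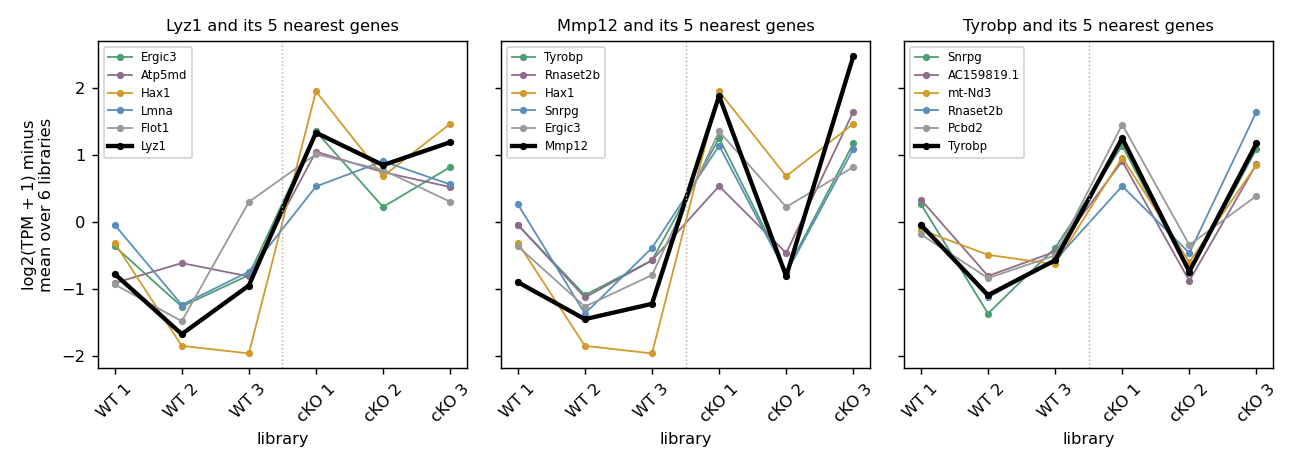
Centred log2(TPM + 1) of each gene's listed sum over the 6 libraries (black) with the 5 nearest genes in colour; the dotted line separates WT from cKO. Tyrobp and its neighbours drop back in cKO 2, which the Lyz1 profile does to a lesser degree.

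The pair cKO 1 and cKO 3 was highest for many abundant transcripts, not for these genes alone. Among those that passed the filter, 63 transcripts were listed as higher in cKO with a mean of at least 20 TPM. Of the 63, 46 had cKO 1 and cKO 3 as their highest libraries, 3 had cKO 1 and cKO 2, and 0 had cKO 2 and cKO 3. A length was matched for 55 of the 63, and 48 of these were at most 1000 bases long, as is Tyrobp. The pair led in 37 of those 48 and in 5 of the 7 longer ones, to which Lyz1 and Mmp12 belong. In cKO 2, 18 of the 63 transcripts were above every WT library. By the ratio of cKO 2 to the highest WT library Lyz1 came in place 2 of the 63, at 3.10, Mmp12 in place 16, at 1.02, and Tyrobp in place 40, at 0.615. These counts were chosen after the values were seen, and the part of the library pattern in the levels of Mmp12 and Tyrobp was not tested.

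**Figure D4:**
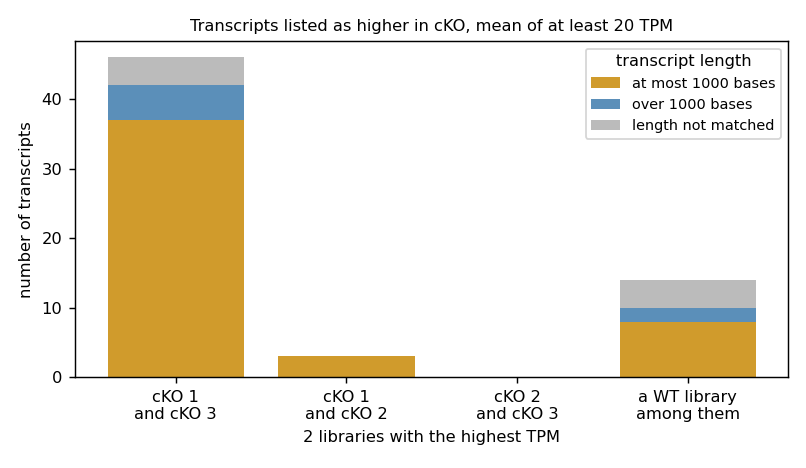
Number of transcripts past the filter and listed as higher in cKO, with a mean of at least 20 TPM, by the pair of libraries with the highest TPM and by transcript length. The bar of cKO 1 and cKO 3 holds 46 of the 63 transcripts, 37 of them at most 1000 bases long.

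Mesothelial and fibroblast markers ran against the 3 genes in WT. For each gene the WT libraries ranked WT 1, WT 3, WT 2, and their marker sums ranked the other way, at 63.7, 151 and 511 TPM. In cKO the sum was 20.1 TPM in cKO 1, 65.7 TPM in cKO 2 and 61.0 TPM in cKO 3. That order is the reverse of those of Lyz1 and Tyrobp in cKO, but not of that of Mmp12. All 36 listed transcripts of these markers were lower in the deposited comparison, against 20324 of all 33539. Of the 36, 1 was called there, a Col1a2 transcript at 2.02 TPM or less, with an adjusted p of 1.35e-06. The part of these markers in the levels was not tested. Without WT 1 and WT 2, the libraries without Y-linked transcripts, WT 3 was the single WT library left and was assumed to vary like the cKO libraries. The limma log2 differences of the main transcripts were then 2.07 ± 0.79 (SE) for Lyz1, 2.44 ± 1.40 for Mmp12 and 1.13 ± 1.12 for Tyrobp, so the SE for Tyrobp was about as large as its difference.

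**Figure D5:**
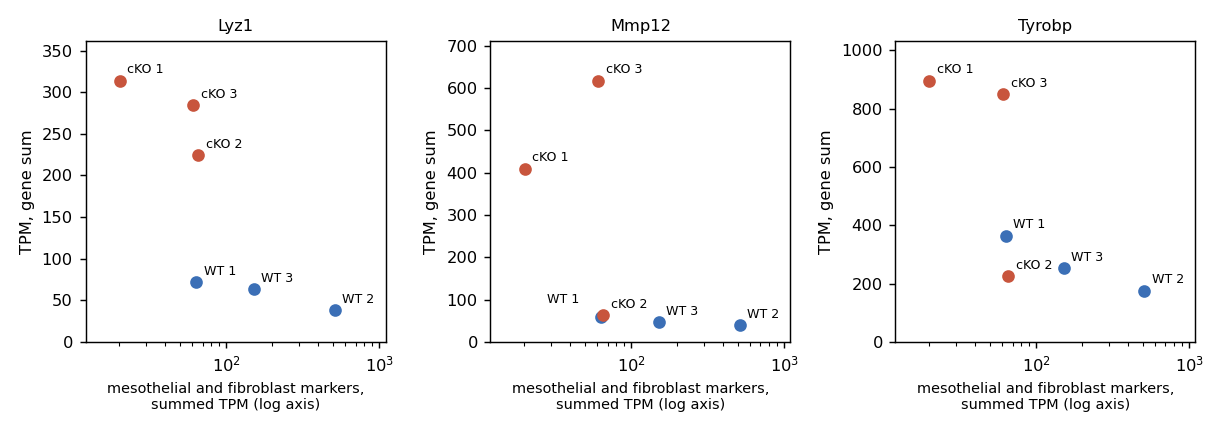
Summed listed TPM of each gene against the summed listed TPM of mesothelial and fibroblast markers (log axis), 1 point per library, WT in blue and cKO in red. WT 2 lies farthest right and is the lowest library for all 3 genes, and cKO 1 lies farthest left.

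Other genes of each pathway were examined by lists of known function. No transcript of the 4 lists beside those of Lyz1 was called in the authors' deposited table. As 0.268% of all listed transcripts were called there, a count of 0 says nothing particular about these lists. Limma called 0 of all 2050 transcripts tested, with 472, or 23%, at an unadjusted p under 0.05. Among other antimicrobial effectors, 12 genes had 17 listed transcripts, 6 higher and 11 lower in the deposited comparison, with a median log2 fold change of -1.37, which is also that of all listed transcripts. Only 1 of the 17 passed the filter, and 78.7% of all listed transcripts stayed under 1 TPM in every library. The shared median thus mostly describes transcripts at very low levels. The most abundant of the 17 was an assembled transcript of Lcn2, the iron-sequestering lipocalin, with 2.33, 0.99 and 4.15 TPM across WT 1 to 3, then 1.47, 1.17 and 0.16 TPM across cKO 1 to 3. A retained-intron transcript of Ncf4, a subunit gene of the NADPH oxidase, reached 1.61 TPM in WT 3. No other gene of this list came near the level of Lyz1.

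Of the other matrix metalloproteinases and their inhibitors, 13 genes had 23 listed transcripts, 10 higher and 13 lower, with a median deposited log2 fold change of -1.09. Of these transcripts 3 passed the filter. The 3 most abundant, of Mmp14, Timp3 and Mmp2, were highest in WT 2, where Mmp12 was lowest. Mmp14, a membrane-bound collagenase, measured 5.04, 22.4 and 12.5 TPM across WT 1 to 3, then 3.49, 4.72 and 3.93 TPM across cKO 1 to 3. Timp3, a metalloproteinase inhibitor, measured 3.28, 21.4 and 6.74 TPM across WT 1 to 3, then 1.13, 3.81 and 3.43 TPM across cKO 1 to 3. Mmp2, a gelatinase typical of stromal cells, was at 5.08 TPM in WT 2 and between 0.34 and 3.33 TPM elsewhere. The Mmp12 neighbours Mmp13, Mmp1b and Mmp3 have no listed transcript and were not analysed here.

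The receptors that pair with DAP12 or signal through it indirectly were low in the table. Of 20 such genes, 13 had 28 listed transcripts, 15 higher and 13 lower, with a median deposited log2 fold change of 1.28, and only 1 passed the filter. That transcript, a retained intron of the semaphorin receptor gene Plxna1, measured 5.86, 17.1 and 0 TPM across WT 1 to 3, then 1.48, 1.03 and 0 TPM across cKO 1 to 3. A transcript of the CSF-1 receptor gene Csf1r reached 3.46 TPM in WT 2 and 6.21 in WT 3 and stood at 0 elsewhere. Trem2, Trem3 and Clec5a have no listed transcript and were not analysed here.

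Among the other ITAM adaptors and their signalling partners, 25 genes had 59 listed transcripts, 24 higher and 35 lower, with a median deposited log2 fold change of -1.28. Of these transcripts 6 passed the filter. Hcst, which encodes the adaptor DAP10 and is the next gene to Tyrobp on chromosome 7 in RefSeq, measured 7.70, 8.53 and 7.83 TPM across WT 1 to 3, then 14.5, 7.39 and 16.0 TPM across cKO 1 to 3. Like Tyrobp it was high in cKO 1 and cKO 3 only, with a limma log2 difference of 0.53 and a deposited adjusted p of 0.731. Of the 18 nearest protein-coding genes of the 3 members, 3 on each side, 9 are listed and Hcst was the one that reached 5 TPM in any library. An assembled transcript of Cbl, a ubiquitin ligase that ends receptor signalling, was at 13.1 TPM in WT 2 and at 4.79 TPM or less elsewhere. Fcer1g, which encodes the related adaptor FcRgamma, and the kinase gene Lyn have no listed transcript and were not analysed here.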

How the data were processed

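Per the labels' protocols, poly(A) RNA was made into stranded libraries, sequenced from both ends, trimmed with fastp, aligned with HISAT2 and assembled with StringTie. RSEM and DESeq2 are named in the submitters' processing notes. The sources used here name no version, genome build or annotation. The deposited TPM are the authors' values per transcript over a whole library, with 0 unmatched columns of per-sample values. The authors also deposited the cKO over WT fold as a ratio, its log2 value, and a p-value with its adjusted value. TPM keeps no depth, so read depth is unknown and counting error cannot be given.

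Here, listed transcripts were summed per gene, and limma 3.58.1 in R 4.3.3 (two-sided, a variance trend, genotype alone as the term, Benjamini-Hochberg over all tested) was fitted to log2(TPM + 1) of all transcripts, or gene sums, with at least 1 TPM in at least 3 libraries. A pseudocount of 1 understates changes of low transcripts. The fit was tested on simulated data. The planned design gave limma differences and SE for the 3 genes without p. Named genes are the 3 genes, the most abundant and the called members of 4 function lists, and the 5 nearest genes of each by profile distance; some list members that this rule names are not reported here. The members and lists were chosen with earlier results of these data known. Separate animals are implied by the labels, but p-values would measure only the spread between these samples. Alternatives were a pseudocount of 0.1, no filter, median-ratio rescaling, the replicate number as a block, and leaving out libraries. GENCODE M21 gave transcript lengths and coding sequences, matched by identifier. Python 3.11.15 and pandas 2.3.3 were used.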

Additional observations from a re-analysis of the deposited data

How the results depend on the processing

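The direction of each log2 difference (the 4 tested transcripts and the 3 gene sums) held under all alternatives run, the pseudocount of 0.1, no filter, rescaling, the block and leaving out libraries. Dropping the filter or adding the block can change only the SE, not the difference itself, so these settings are no check of the direction. For the main transcripts and sums of Lyz1 and Mmp12 the groups did not overlap. Leaving out a library or changing the pseudocount could therefore not reverse their direction. Leaving out 1 library at a time gave 1.98 to 2.43 for Lyz1 ENSMUST00000092162, 1.74 to 3.44 for Mmp12 ENSMUST00000005950, 0.40 to 0.90 for Mmp12 ENSMUST00000138220 and 0.79 to 1.78 for Tyrobp ENSMUST00000032800, and for the gene sums 1.99 to 2.44 (Lyz1), 1.73 to 3.37 (Mmp12) and 0.78 to 1.78 (Tyrobp). Median-ratio rescaling divided WT 2 by 2.71 and cKO 1 by 0.571 and moved the median log2 difference of all tested transcripts from -0.39 to 0.69. Its factors came from 3459 transcripts of a table selected on this contrast. As the rescaling shifted differences upward, it could not challenge those that were already above 0. Under it the differences were 3.27 for Lyz1 ENSMUST00000092162, 1.42 for Mmp12 ENSMUST00000138220 and 2.17 for Tyrobp ENSMUST00000032800, and 3.27 and 2.17 for the Lyz1 and Tyrobp sums, with Mmp12 ENSMUST00000005950 at 3.42, so each moved by about that shift or less. Limma called 14 transcripts of the table under this rescaling and 0 to 5 with 1 library left out, against 0 otherwise; the cause was not tested. Whether the replicate numbers pair the libraries is not known. The correlations of same-numbered deviations were 0.13, -0.14 and -0.11, and those of differently numbered ones ran from -0.19 to 0.23. With so few libraries on a table selected on this contrast, these values cannot decide it. With the replicate number as a block the Lyz1 transcript's difference stayed 2.25, with an SE of 0.68, and limma called 0. The count of 3 transcripts without overlap was between 3 and 4 with 1 library left out. Leaving out a library can only keep or raise this count, so it is no check of it. The count of 2 deposited calls was the same at an adjusted p under 0.01, as both printed values were already below that. The nearest genes depended on the setting. Without WT 2, 2 of the 5 remained for Lyz1, 1 for Mmp12 and 2 for Tyrobp, and with the genotype means subtracted 0, 1 and 3 remained. Among transcripts listed as higher in cKO that passed the filter, the share with cKO 1 and cKO 3 highest was 73.0% at a mean of at least 20 TPM. It was 56.0% at 5 TPM and, with no minimum of the mean, 30.2% of 1021 transcripts.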
